A study of Mus musculus with 2 samples.

Results

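The enzymes that make, destroy and read the second messengers cAMP and cGMP were followed through the cells of the mouse habenula. Members were all genes of the count tables whose symbol is Adcy or Pde followed by a digit, or starts with Prkac, Prkar or Prkg, which gave 44 of 28692 genes: 10 adenylyl cyclases, 26 genes with a phosphodiesterase symbol, 2 catalytic and 4 regulatory subunits of protein kinase A, and 2 cGMP-dependent protein kinases. Not all of the 26 degrade cyclic nucleotides. Among those that do not are Pde4dip (myomegalin, a protein of the centrosome and Golgi) and Pde12 (a mitochondrial enzyme that trims RNA tails). Another is Pde6d, a chaperone of prenylated proteins. There were 2 droplet libraries of single cells, control and foot shock, each from habenula punches of 4 adult male C57BL/6 mice aged 50 to 55 days that were pooled before digestion. Both sets of mice were handled, and the shocked mice were also accustomed to the chamber for 10 min a day over 7 days, received 30 foot shocks of 0.3 mA and 1 s within 60 min, and were killed directly afterwards, while control mice came from the home cage. Blockers of neuronal firing, glutamate receptors, transcription and translation were in the solutions for both. With 1 library per group, shock, chamber and every difference in handling of the pools cannot be told apart, and no p-value is given.

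Adenylyl cyclases make cAMP under the control of G proteins and, in some isoforms, of calcium. Guanylyl cyclases make cGMP in answer to nitric oxide or natriuretic peptides. Phosphodiesterases end both signals, and the families differ in substrate and in what switches them on: Pde1 enzymes by calcium and calmodulin, Pde2a by cGMP, the Pde4, Pde7 and Pde8 families specific for cAMP, and Pde5a and Pde9a for cGMP. In protein kinase A a dimer of regulatory subunits holds the catalytic subunits until cAMP binds, and type II regulatory subunits (Prkar2a, Prkar2b) are tethered to anchoring proteins. In the medial habenula, whose neurons release acetylcholine and substance P into the interpeduncular nucleus, cAMP and cGMP are known to shape transmitter release.

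Promoter sequence is shown for 2 of the 3 members with a class pattern that were highest in medial habenula-like neurons (Prkar2a and Pde2a, not Pde1a), the member that marked oligodendrocyte-like cells (Pde8a), and the only member whose windows held a whole cAMP response element (Prkar1a, the regulatory subunit measured in every class). Sequences are RefSeq windows of GRCm38.p6 (mm10), from 250 bases before to 50 bases after a transcript start, 5′ to 3′ on the plus strand. Where a gene has several windows, one that holds a match was chosen, and of the 5 windows of Pde2a the other 4 hold none. Capitals mark TGACG or its reverse complement, the core of the element.
Prkar2a, chr9:108691893-108692192, match 4 bases before the start: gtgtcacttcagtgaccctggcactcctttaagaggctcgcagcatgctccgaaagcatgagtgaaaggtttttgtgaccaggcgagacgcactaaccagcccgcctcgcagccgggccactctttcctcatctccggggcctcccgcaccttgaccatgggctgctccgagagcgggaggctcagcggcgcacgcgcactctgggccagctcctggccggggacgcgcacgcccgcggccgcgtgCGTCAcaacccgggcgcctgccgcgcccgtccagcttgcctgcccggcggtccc
Pde2a, chr7:101450270-101450569, match 14 bases after the start: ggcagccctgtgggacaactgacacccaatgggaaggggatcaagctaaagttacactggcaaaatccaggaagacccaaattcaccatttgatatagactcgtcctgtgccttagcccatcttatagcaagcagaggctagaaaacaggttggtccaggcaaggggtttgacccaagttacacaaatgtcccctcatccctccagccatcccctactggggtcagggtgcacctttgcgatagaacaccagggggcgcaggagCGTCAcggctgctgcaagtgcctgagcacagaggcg
Pde8a, chr7:81213015-81213314, match 84 bases before the start: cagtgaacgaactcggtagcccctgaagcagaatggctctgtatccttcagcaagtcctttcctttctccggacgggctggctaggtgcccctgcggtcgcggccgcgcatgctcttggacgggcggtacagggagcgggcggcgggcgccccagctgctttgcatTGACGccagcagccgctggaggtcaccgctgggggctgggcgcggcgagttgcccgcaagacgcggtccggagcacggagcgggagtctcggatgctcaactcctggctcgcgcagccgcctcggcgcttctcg
Prkar1a, chr11:109650699-109650998, first of its 3 matches 187 bases before the start: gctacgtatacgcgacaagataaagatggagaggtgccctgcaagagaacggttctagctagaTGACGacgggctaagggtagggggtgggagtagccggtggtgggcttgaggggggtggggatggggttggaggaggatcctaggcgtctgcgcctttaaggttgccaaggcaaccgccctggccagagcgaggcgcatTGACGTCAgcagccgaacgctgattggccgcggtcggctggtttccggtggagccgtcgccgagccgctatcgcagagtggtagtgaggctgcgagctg
The last 2 matches of Prkar1a overlap and form TGACGTCA. Windows were found for 34 of the 44 members, 73 windows in all. TGACG on either strand was in 16 of the 73 (21.9%), against 20.8% of all 32851 windows. Counted by gene it was in at least 1 window of 14 of the 34 members (41.2%), against 23.0% of all genes, where genes with more windows have more chances of a match. TGACGTCA was in 2 of the 73 (2.74%), against 1.79% of all windows. A match is a string of letters and not a bound site.

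After filtering, 4880 control and 4771 foot shock cells remained, with median depths of 2416 and 2698 UMIs, and the libraries shared 32 cell barcodes. Counts were summed over the cells of a class in a library and are given as CPM, scaled to all UMIs of that class and library, with exact 95% Poisson intervals that cover counting error only. These 3′ tag levels are compared within a gene and never between genes. Medial habenula-like (MHb-like) neurons held 1206 control and 1607 foot shock cells, lateral habenula-like (LHb-like) neurons 489 and 566. Further classes that held 50 cells or more in both libraries were thalamus-like neurons (129 and 58), unnamed neurons positive for the habenula gene Pou4f1 (480 and 314) or low in it (290 and 208), astrocyte-like (580 and 164), oligodendrocyte precursor-like (244 and 108), committed precursor-like (93 and 67), oligodendrocyte-like (1080 and 830), microglia-like (115 and 70) and mural-like cells (54 and 61). Of 10 MHb markers all were found in MHb-like neurons and 8 were highest there, whereas of 7 LHb markers all were found in LHb-like neurons but only 3 were highest there. Astrocyte, oligodendrocyte precursor, thalamus and microglia markers were all highest in their own class, as were 6 of 7 oligodendrocyte, 6 of 7 mural and 4 of 6 committed precursor markers. A cluster of 503 keratin epithelial-like cells came from the foot shock library alone and is in no comparison. RNA outside cells was read from barcodes with 10 to 100 UMIs and is called free RNA.

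Among the 11 classes, MHb-like neurons had the highest levels of the regulatory subunit Prkar2a, the cGMP-stimulated phosphodiesterase Pde2a and the calcium-stimulated phosphodiesterase Pde1a. Their levels were 5.57, 16.7 and 9.21 times the median class, against 189 times for Pde8a in oligodendrocyte-like cells. Oligodendrocyte-like cells stood out for Pde8a, thalamus-like neurons for Pde1b, and mural-like cells, the contractile cells of small vessels, for Adcy5, there from 31 UMIs. Pde10a was highest in thalamus-like neurons over both libraries. In control alone it was at 120.7 CPM there and 120.2 CPM in oligodendrocyte precursor-like cells. Of the 44 members 43 had at least 1 UMI, and 34 reached 50 UMIs over both libraries in some class. With at least 200 UMIs in some class and a highest class at 3 times the median class or more, 10 members met the rule for a class pattern: Prkar2a, Prkar1b, Prkaca, Pde1a, Pde1b, Pde2a, Pde4a, Pde8a, Pde10a and Adcy5. Adcy5, Pde4a, Prkaca and Prkar1b no longer met it with at least 2000 UMIs a cell, nor did Adcy5 without glial and mural cells holding a neuron marker, nor Pde4a at either other clustering resolution. The share of all genes that meet this rule was not computed. Other members given below with class values and no call between libraries were chosen after their values were seen.

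**Figure D1:**
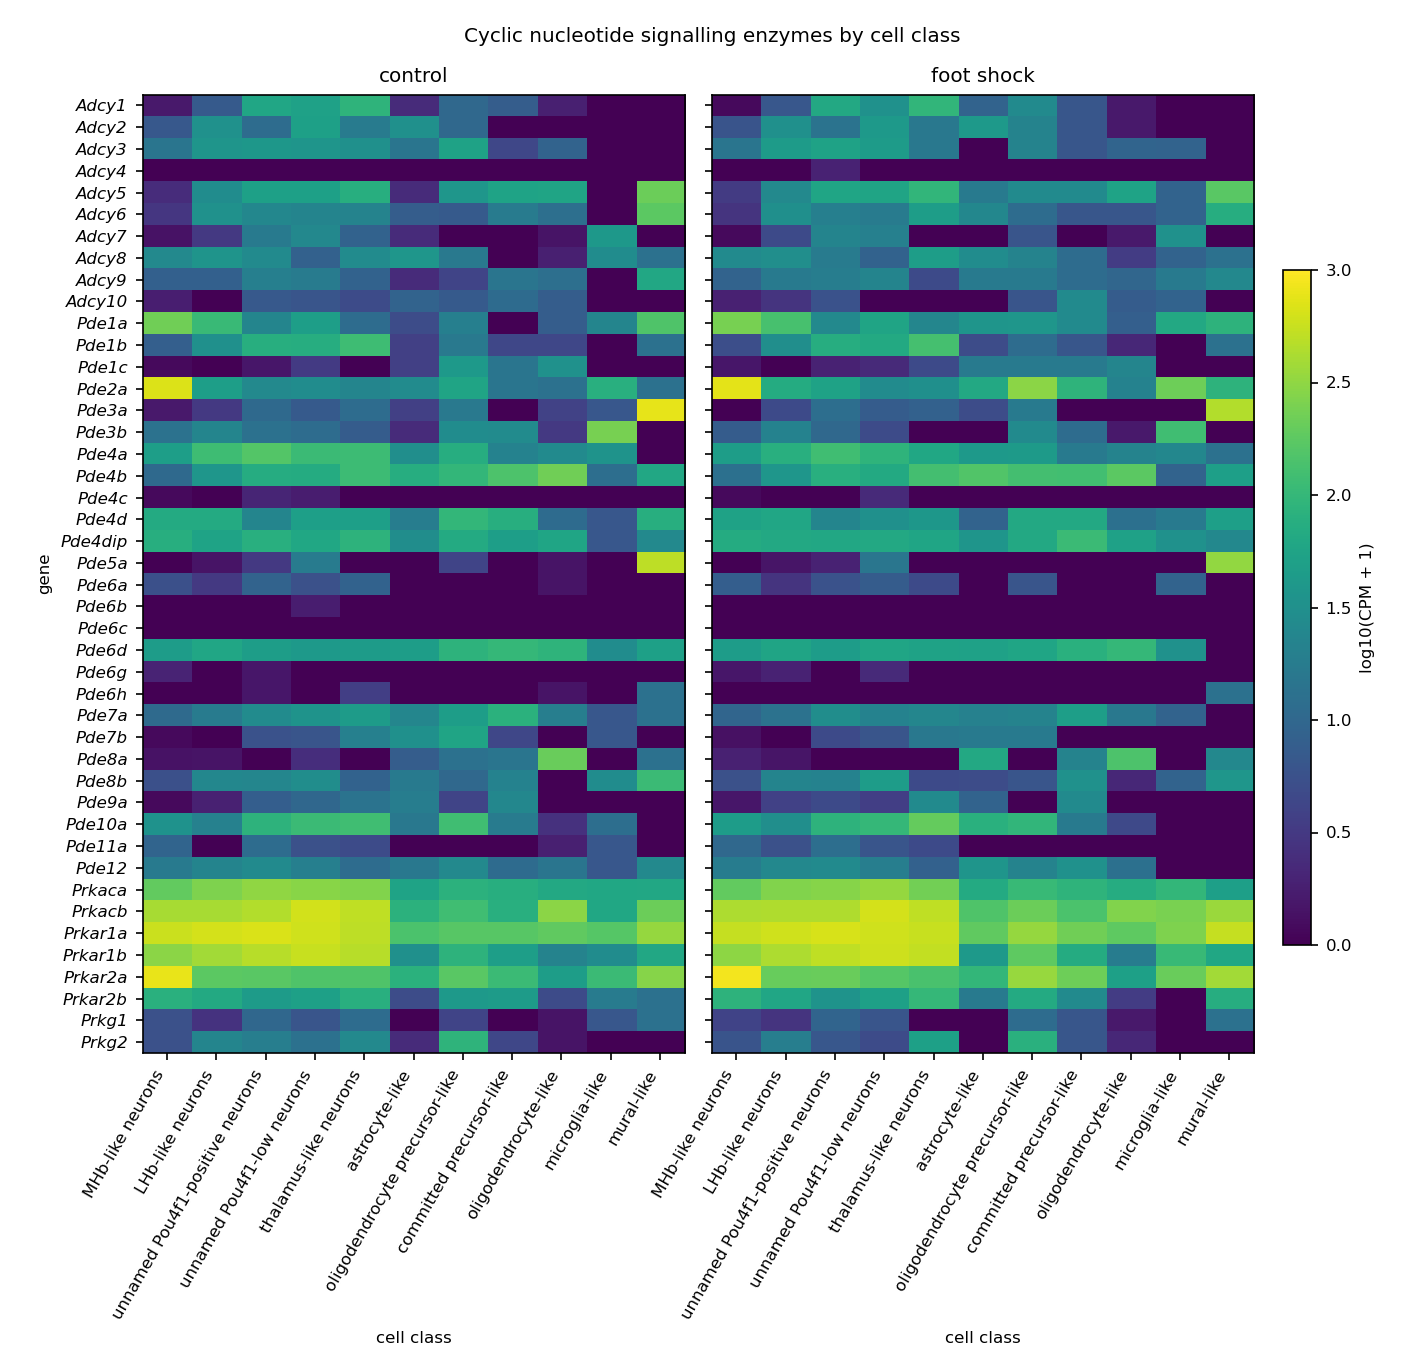
Level of the 44 genes in the 11 cell classes, control and foot shock, as colour on a log scale of CPM, with no error shown. Prkar2a and Pde2a are brightest in MHb-like neurons in both libraries, at 802 and 892 CPM and at 687 and 749 CPM, and Pde3a and Pde5a in mural-like cells.

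The cyclases divided the habenula. Adcy5, the cyclase known from the striatum, was at 1.40 and 2.34 CPM in control and foot shock MHb-like neurons and at 28.0 and 24.9 CPM in LHb-like neurons. Thalamus-like neurons held it at 75.3 and 94.3 CPM, Pou4f1-positive neurons at 50.2 and 56.7 CPM and Pou4f1-low neurons at 50.3 and 55.1 CPM. Its highest class was the mural-like cells, at 209.7 CPM (122 to 336) and 171 CPM (93.3 to 286), from 17 and 14 UMIs. Oligodendrocyte-like cells had 54.9 and 54.6 CPM, and the other 4 classes 0 to 54.0 CPM.

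Adcy6, a calcium-inhibited relative of Adcy5, was likewise low in MHb-like neurons at 2.00 and 1.80 CPM and higher in LHb-like neurons at 32.4 and 30.0 CPM. Adcy2 was at 5.79 and 5.03 CPM against 32.4 and 31.3 CPM, and Adcy3 at 13.8 and 13.6 CPM against 35.4 and 43.3 CPM. Adcy1, a calcium-stimulated cyclase, was at 0.599 and 0.180 CPM in MHb-like, 6.04 and 5.53 CPM in LHb-like and 89.6 and 94.3 CPM in thalamus-like neurons. For these 5 cyclases (Adcy1, Adcy2, Adcy3, Adcy5 and Adcy6) the interval in LHb-like neurons lay above that in MHb-like neurons in both libraries. Adcy8, also stimulated by calcium, did not divide them, with 25.0 and 26.4 CPM and 34.5 and 29.0 CPM. Nor did Adcy9, at 7.39 and 7.91 CPM and 7.33 and 15.7 CPM. Over the 11 classes Adcy6 was highest in mural-like cells, at 172.7 and 73.1 CPM. In mural-like cells without a neuron marker it was at 189.7 and 80.5 CPM, from 13 and 5 UMIs. Adcy7 was highest in microglia-like cells at 38.9 and 31.7 CPM, from 7 and 4 UMIs. The bicarbonate-regulated Adcy10 had 84 UMIs over all cells and Adcy4 had 20, and neither was measured in any class.

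The kinase subunits Prkaca, Prkacb and Prkar1b were higher in each neuron class than in any other class, whereas Prkar2a was highest in the medial habenula alone. It was at 802 CPM (778 to 827) in control and 892 CPM (867 to 917) in foot shock MHb-like neurons, and at 175 and 199 CPM in LHb-like neurons. Pou4f1-positive, Pou4f1-low and thalamus-like neurons had 171 and 204 CPM, 146 and 163 CPM and 147 and 136 CPM. Oligodendrocyte-like cells were lowest at 46.1 and 49.8 CPM, mural-like cells had 284 and 378 CPM, and the other 4 classes 82.1 to 340.2 CPM.

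The share of cells holding a UMI showed the same order for Prkar2a. With each cell thinned to 1000 UMIs, which left out no cell, an expected 48.4% (45.6 to 51.3) of control and 52.7% (50.2 to 55.2) of foot shock MHb-like neurons kept a UMI. Intervals of shares are binomial, from the expected number of cells rounded to a whole number. They treat cells as independent and do not cover differences between the pools of mice. LHb-like neurons had 14.0% and 16.7%. Oligodendrocyte-like cells, the class with the lowest CPM, had 4.62% and 4.45%, and the part of free RNA in these shares was not tested. Without thinning the shares were 82.8% and 82.6%, 47.4% and 50.2% and 9.17% and 8.92%, at median depths of 4228 and 3471, 4509 and 3642, and 2067 and 1846 UMIs.

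Prkar1b, a regulatory subunit typical of brain, was lower in MHb-like than in all other neurons. It was at 303 CPM (288 to 319) and 309 CPM (295 to 324) in MHb-like and at 385 CPM (360.4 to 411) and 427 CPM (400.2 to 456) in LHb-like neurons. Pou4f1-positive, Pou4f1-low and thalamus-like neurons had 473 and 517 CPM, 562 and 588 CPM and 476 and 528 CPM, and the 6 classes that are not neurons 17.2 to 178 CPM. The catalytic subunit Prkaca was at 192 and 189 CPM in MHb-like, 264 and 266 CPM in LHb-like, 317 and 285 CPM in Pou4f1-positive, 295 and 332 CPM in Pou4f1-low and 270.0 and 230.1 CPM in thalamus-like neurons. Outside neurons Prkaca lay at 48.7 to 105 CPM. The other catalytic subunit, Prkacb, lay at 402 to 646 CPM in neurons and 61.1 to 353 CPM elsewhere. Prkar1a, which was measured in all 11 classes, lay at 498 to 683 CPM in neurons and 141 to 548 CPM elsewhere. Prkar2b, the other type II subunit, was at 79.7 and 86.8 CPM in MHb-like and 65.6 and 59.0 CPM in LHb-like neurons.

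The cGMP-dependent kinases were sparse. Prkg2, the membrane-bound form, was highest in oligodendrocyte precursor-like cells at 89.4 CPM (59.8 to 128) and 78.5 CPM (43.9 to 129.5), against 22.4 and 18.0 CPM in LHb-like and 4.59 and 5.03 CPM in MHb-like neurons. Prkg1, the form of smooth muscle, had 110 UMIs over all cells and at most 12.3 CPM in any class.

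Among the phosphodiesterases, Pde2a rose steeply towards the medial habenula. It was at 687 CPM (664 to 710.3) in control and 749 CPM (726 to 772) in foot shock MHb-like neurons and at 46.6 CPM (38.2 to 56.2) and 68.7 CPM (58.1 to 80.6) in LHb-like neurons. Pou4f1-positive, Pou4f1-low and thalamus-like neurons had 24.8 and 53.0 CPM, 27.8 and 26.9 CPM and 22.1 and 30.2 CPM. The 6 classes that are not neurons had 12.2 to 298 CPM, and free RNA held 106 and 138 CPM. Endothelial-like cells, which were too few for the comparison of libraries, had Pde2a at 217 and 298 CPM. The identifier counted as Pde2a is named Gm45837 in GENCODE vM21, chr7:101410886-101512819 on the plus strand, and its exons overlap those of Arap1 on the same strand. Counts of the 2 genes there are uncertain.

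Pde1a shared that preference and its relative Pde1b did not. Pde1a was at 224 CPM (211 to 238) and 239.7 CPM (227 to 253) in MHb-like neurons and 107 and 135 CPM in LHb-like neurons, 22.2 and 25.1 CPM in Pou4f1-positive, 46.6 and 55.1 CPM in Pou4f1-low and 10.4 and 22.6 CPM in thalamus-like neurons. Mural-like cells had 148 and 85.3 CPM from 12 and 7 UMIs, and the other 5 classes 0 to 63.4 CPM. Pde1b was at 116 and 128 CPM in thalamus-like, 75.1 and 72.5 CPM in Pou4f1-positive, 72.9 and 65.4 CPM in Pou4f1-low, 30.6 and 29.0 CPM in LHb-like and 6.99 and 4.31 CPM in MHb-like neurons. The level in MHb-like neurons was below that in free RNA, 30.5 and 19.2 CPM, and outside neurons Pde1b lay at 0 to 15.4 CPM. Pde1c, the remaining calcium-stimulated form, was at most 3.77 CPM in neurons and at 32.1 and 21.9 CPM in oligodendrocyte-like and 40.1 and 15.7 CPM in oligodendrocyte precursor-like cells.

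Pde10a and Pde4a were both highest in neurons outside the medial habenula. Pde10a, known from striatal neurons, was at 121 and 196 CPM in thalamus-like, 111 and 97.4 CPM in Pou4f1-low, 86.7 and 86.4 CPM in Pou4f1-positive, 33.0 and 44.0 CPM in MHb-like and 19.8 and 29.5 CPM in LHb-like neurons. Oligodendrocyte precursor-like cells had 120.2 and 94.2 CPM of it, and the other 5 classes 0 to 79.2 CPM. Pde4a, specific for cAMP, was at 154 and 119 CPM in Pou4f1-positive, 116 and 77.0 CPM in LHb-like, 114 and 60.4 CPM in thalamus-like, 109.7 and 88.4 CPM in Pou4f1-low and 46.9 and 45.3 CPM in MHb-like neurons, with 0 to 74.0 CPM outside neurons. Another cAMP-specific enzyme, Pde4d, was at 66.5 and 53.0 CPM in MHb-like and 66.4 and 58.1 CPM in LHb-like neurons.

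Outside neurons, Pde8a marked oligodendrocyte-like cells. This cAMP-specific enzyme was at 203 CPM (186 to 222) in control and 146 CPM (128 to 165) in foot shock and at 0.399 and 0.898 CPM in MHb-like and 0.431 and 0.461 CPM in LHb-like neurons. Astrocyte-like cells had 6.73 and 63.3 CPM, from 5 and 16 UMIs, and the other 4 classes 0 to 24.4 CPM. At 1000 UMIs a cell, 19.0% (16.7 to 21.4) of control and 13.4% (11.1 to 15.9) of foot shock oligodendrocyte-like cells kept a Pde8a UMI, against 0.0845% and 0.0823% of MHb-like neurons. Without thinning these were 35.7% and 24.2% and 0.166% and 0.311%. Pde4b was at 220.1 and 172 CPM in oligodendrocyte-like and 145 and 121 CPM in committed precursor-like cells, but was also at 113 and 124 CPM in thalamus-like neurons, against 9.59 and 11.7 CPM in MHb-like neurons.

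Mural-like and microglia-like cells had phosphodiesterases that were low in the other 10 classes. Pde3a, which cGMP inhibits, was at 777 CPM (597 to 994) and 451 CPM (318 to 622) in mural-like cells and at most 15.7 CPM in the other 10 classes. Pde5a, the cGMP-specific enzyme of vascular muscle, was at 506 CPM (363 to 686) and 329 CPM (217 to 479) there and at most 16.5 CPM in the other 10. Endothelial-like cells, outside the 11 classes, held Pde3a at 102 and 0 CPM and Pde5a at 70.2 and 27.1 CPM, from 16 and 0 and 11 and 3 UMIs. Pde3b was at 244 CPM (178 to 328) and 119 CPM (66.6 to 196) in microglia-like cells and at most 27.7 CPM in the other 10.

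**Figure D2:**
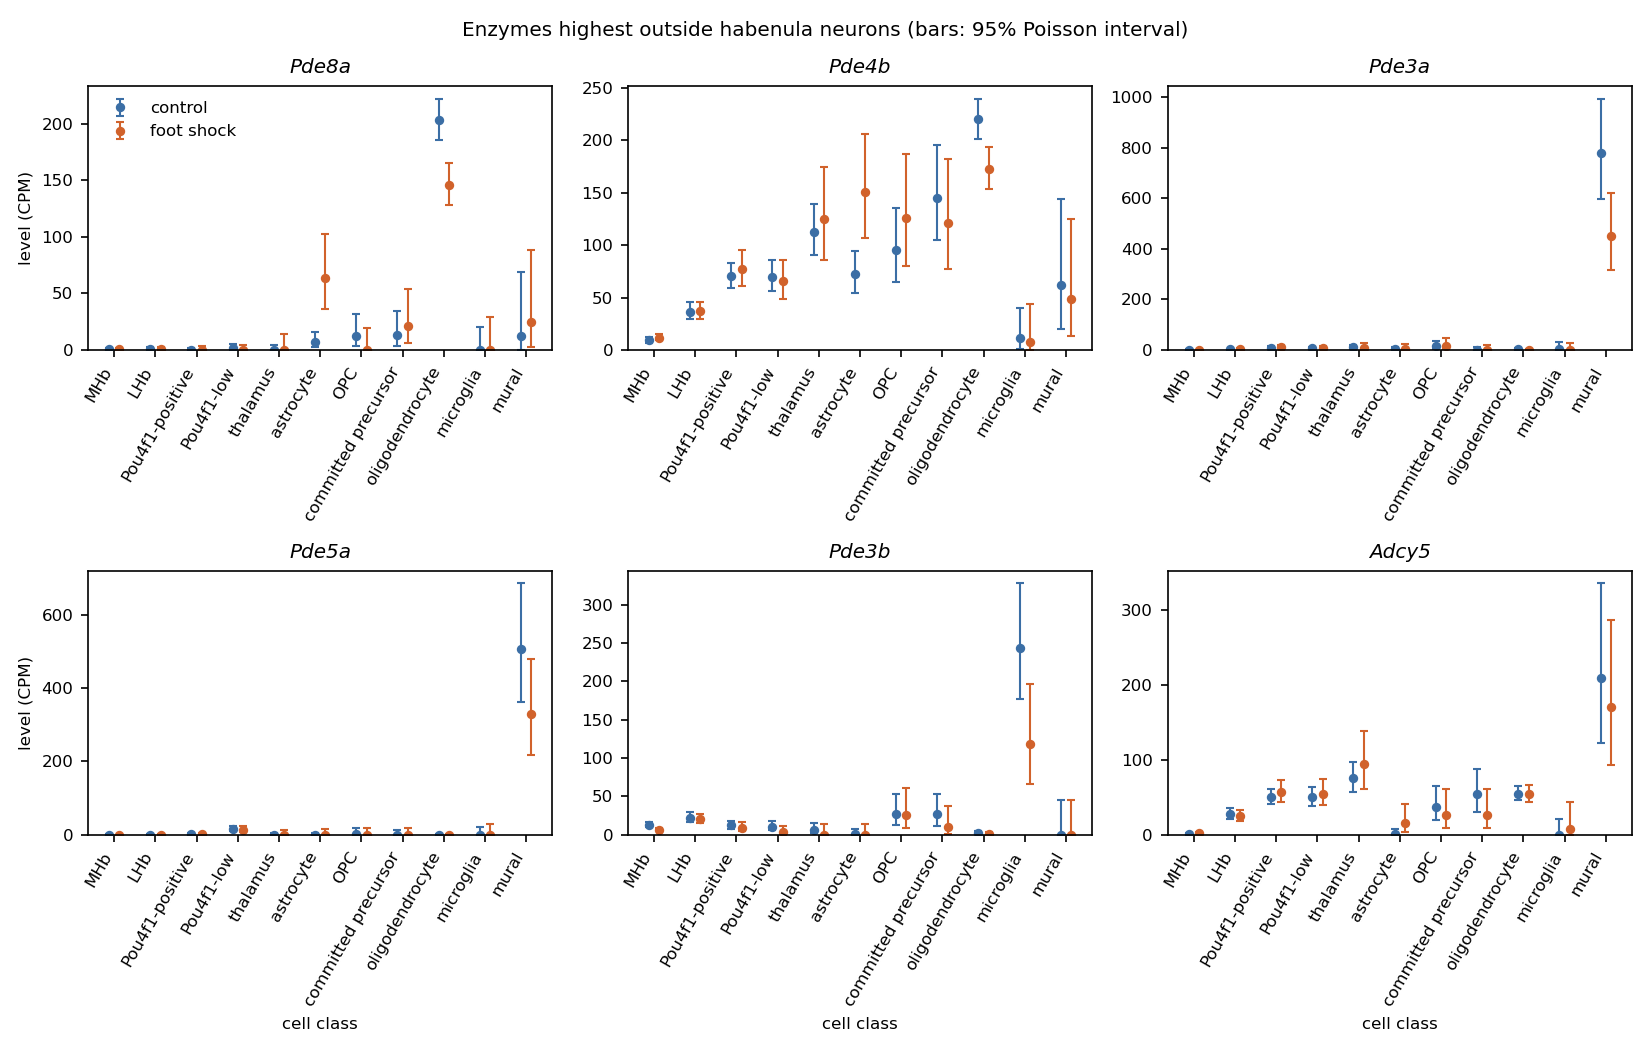
Levels in CPM (vertical axes, each from 0) of 6 genes in the 11 classes, where points are single libraries, control blue and foot shock orange, and bars are 95% Poisson intervals. Of these classes Pde3a and Pde5a are high in mural-like cells alone, at 777 and 451 CPM and 506 and 329 CPM, Pde3b in microglia-like cells, and Pde8a in oligodendrocyte-like cells.

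The other phosphodiesterase symbols had less marked patterns or few UMIs. Pde6d, a chaperone of prenylated proteins, ranged over the 11 classes from 0 to 99.0 CPM, Pde4dip from 5.55 to 111 CPM and Pde12 from 0 to 35.6 CPM. Pde7a ranged from 0 to 81.0 CPM, Pde8b from 0 to 111 CPM and Pde11a, which degrades both cyclic nucleotides, from 0 to 11.2 CPM. Members measured in no class were Pde7b with 103 UMIs over all cells, the cGMP-specific Pde9a with 112, and Pde4c with 10. Of the photoreceptor genes, Pde6a had 110 UMIs, Pde6g 15, Pde6h 7, Pde6b 1 and Pde6c 0, where a count of 0 allows up to 3 UMIs in these cells.

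Within the medial habenula some members were unevenly spread, and Prkar2a and Pde2a each kept its highest subcluster in both libraries. MHb-like neurons fell into 8 subclusters, numbered here and given with their leading genes: MHb1 (Fgf1, Lsp1, Syndig1l), MHb2 (Calcrl, Rgs10, Agt), MHb3 (Spon1, Syt15, Lmo1), MHb4 (Cck, 6330403A02Rik, Adcyap1), MHb5 (Syt2, Car2, Ebf3), MHb6 (Sema3d, Luzp2, Tac1), MHb7 (Pam, Abhd2, Actb) and MHb8 (Clasp2, Fn3krp, Pim1). MHb4, led by the peptide genes Cck and Adcyap1, and MHb6, with the substance P gene Tac1, had the least Prkar2a and Pde2a. In MHb7 the median depth was 3389 and 1718 UMIs in control and foot shock, and in MHb8 4751 and 2234 UMIs. On the condition of 100 UMIs or more and a range of 3 times or more, 7 members varied over these subclusters. The share of all genes that meet this rule was not computed, and such a range includes counting error. The kinase A subunits other than Prkar2a ranged only 1.35 to 1.49 times. Of the 7, Adcy3 and Adcy8 had different highest subclusters in the 2 libraries.

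Prkar2a was at 1226 and 1233 CPM in MHb5, 1146 and 1216 CPM in MHb1 and 1143 and 1137 CPM in MHb8. Lower levels were found in MHb2 (851 and 919.5 CPM), MHb7 (632 and 810.4 CPM), MHb3 (620.0 and 734 CPM) and MHb6 (399.9 and 432 CPM), down to 210.1 and 242 CPM in MHb4. Pde2a was at 1093 and 1055 CPM in MHb1, 959.8 and 1041 CPM in MHb8, 842 and 866 CPM in MHb5, 792 and 912 CPM in MHb2, 543 and 564 CPM in MHb3 and 464 and 573 CPM in MHb7. Its lowest levels were 267 and 252 CPM in MHb6 and 212 and 227 CPM in MHb4. Prkar1a, by comparison, ranged only from 484 to 689.5 CPM over the 8 subclusters.

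Pde10a and Pde11a ran the other way. Pde10a was at 96.7 and 110.0 CPM in MHb4, 41.6 and 85.6 CPM in MHb6, 50.2 and 58.7 CPM in MHb3, 31.3 and 37.6 CPM in MHb2 and 27.6 and 49.5 CPM in MHb7, and lay at 3.46 to 25.0 CPM in the other 3. Pde11a was at 68.4 and 69.1 CPM in MHb4 and at most 4.16 CPM in the other 7, and it is named here after its values were seen. Pde4b was at 28.8 and 35.3 CPM in MHb5 and 1.67 and 0 CPM in MHb4. Adcy8 was at 38.1 and 37.5 CPM in MHb1 and 13.3 and 8.46 CPM in MHb4. Adcy3 ranged from 3.46 to 21.7 CPM and Pde12 from 7.08 to 31.2 CPM.

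Companion genes of the pathway were followed from lists of which 65 genes were found in the files: guanylyl cyclases, nitric oxide synthases, G proteins, kinase inhibitors, other cAMP effectors, channels, anchoring proteins, transcription factors and phosphatase regulators. Among them Rapgef4 (Epac2, a cAMP-activated exchange factor) was highest in the subclusters with most Prkar2a. It was at 743 and 1075 CPM in MHb1, 686 and 966 CPM in MHb8 and 525 and 580.5 CPM in MHb5. Levels were 10.00 and 6.94 CPM in MHb6 and 18.4 and 36.7 CPM in MHb4. MHb2 had 165 and 269 CPM, MHb7 74.6 and 188 CPM and MHb3 39.85 and 64.3 CPM, though Pde2a in MHb2 was close to its MHb5 level. Gucy1a3, a subunit of the nitric oxide-sensitive guanylyl cyclase, was at 719 and 753 CPM in MHb4. Npr1, the receptor cyclase for natriuretic peptides, was at 216 and 263 CPM in MHb2 and 30.0 and 38.1 CPM in MHb4.

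**Figure D3:**
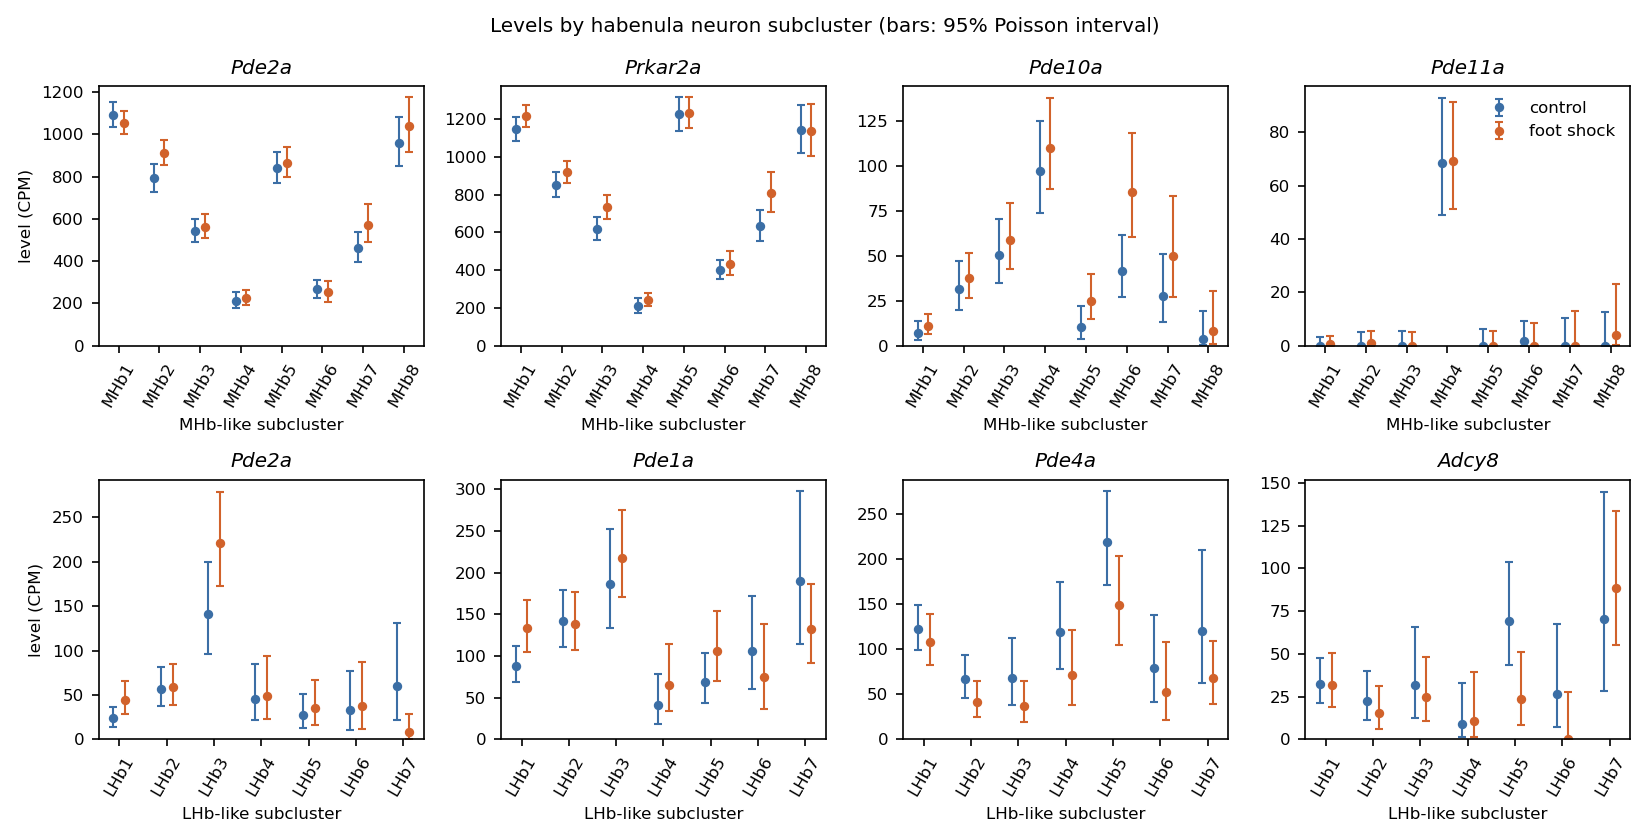
Levels in CPM (vertical axes, each from 0) of Pde2a, Prkar2a, Pde10a and Pde11a in the 8 MHb-like subclusters (top) and of Pde2a, Pde1a, Pde4a and Adcy8 in the 7 LHb-like subclusters (bottom), where points are single libraries and bars 95% Poisson intervals. Pde2a and Prkar2a are lowest in MHb4 and MHb6, Pde11a appears in MHb4 at 68.4 and 69.1 CPM, and Pde2a peaks in LHb3 at 141 and 221 CPM.

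LHb-like neurons fell into 7 subclusters: LHb1 (Fam101b, Sv2c, Nfib), LHb2 (Peg10, Wif1, Gchfr), LHb3 (Sst, Mctp1, Npr1), LHb4 (Igfbp5, Cacna2d1, Serpine2), LHb5 (Ret, Cxcl13, Sod3), LHb6 (Fn3krp, Abhd2, Ggact) and LHb7 (Crim1, Trhde, Calb2). Over these, 13 members met the same rule, again with no share over all genes computed. LHb3, led by the somatostatin gene Sst, had the most Pde2a, at 141 CPM (95.8 to 200.0) and 221 CPM (173 to 278), against 8.03 to 60.2 CPM in the other 6. Pde1a was at 186 and 218 CPM in LHb3, 190.5 and 132 CPM in LHb7 and 41.4 and 65.6 CPM in LHb4. The cGMP-making receptor Npr1, one of the leading genes of LHb3, was at 182 and 215 CPM there.

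LHb5, led by the growth factor receptor gene Ret, had the most Pde4a, at 219 and 149 CPM, against 68.2 and 36.8 CPM in LHb3. It also had Adcy3 at 51.0 and 58.7 CPM and Adcy5 at 54.0 and 43.0 CPM, but Adcy2 at only 3.00 and 3.91 CPM, which LHb1 held at 52.4 and 48.0 CPM. Pde1b was at 68.9 and 82.0 CPM in LHb4 and 72.0 and 66.5 CPM in LHb5, against 0 and 7.51 CPM in LHb6. LHb7, with 23 control and 51 foot shock cells, had Adcy8 at 70.2 and 88.3 CPM and Adcy5 at 40.1 and 60.2 CPM, where LHb3 had Adcy5 at 4.55 and 9.21 CPM. Adcy6 was at 42.4 and 49.8 CPM in LHb1 and 18.2 and 0 CPM in LHb3. The remaining 4 were Pde4b, from 6.00 to 53.6 CPM over the 7 subclusters, Pde4d from 27.3 to 97.7 CPM, Pde8b from 6.61 to 43.8 CPM and Pde12 from 0 to 47.0 CPM.

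The comparison of foot shock with control asked whether the enzymes differed after the session. In habenular neurons few did by as much as 1.5 times, and those with most UMIs stayed close to 1. A gene counted as measured in a class once both libraries together gave 50 UMIs, and as higher or lower in foot shock past a ratio of 1.5 or its inverse. Ratios carry exact conditional binomial 95% intervals. Over the 11 classes, 29 of 147 measured pairs of member and class were past this threshold, against 10.7% of all pairs of measured gene and class. In MHb-like neurons 3 of 25 measured members were, where 4.41% of all measured genes were. In LHb-like neurons 2 of 26 were, with 5.93% of all genes, and in Pou4f1-positive neurons 2 of 25, with 6.95%. The median log2 ratio of measured members was 0.05 in MHb-like and -0.06 in LHb-like neurons, where that of all measured genes was -0.03 and -0.04.

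In MHb-like neurons the enzymes with most UMIs differed little. Prkar2a had a ratio of 1.11 (1.07 to 1.16), Pde2a of 1.09 (1.04 to 1.14) and Prkar1a of 0.964 (0.916 to 1.02). The 3 past the threshold were sparse. Pde3b was at 12.6 and 6.47 CPM, giving a ratio of 0.514 (0.332 to 0.786). Its CPM was lower in foot shock in 8 of 8 subclusters, though its UMIs were equal between libraries in MHb2, MHb4 and MHb5. Subclusters are parts of the same 2 libraries and not replicates. Pde1b was at 6.99 and 4.31 CPM, giving a ratio of 0.617 (0.351 to 1.07), and Pde6a at 4.39 and 6.83 CPM, giving a ratio of 1.55 (0.896 to 2.76). The intervals of Pde1b and Pde6a include 1. Over the 8 subclusters Pde1b was lower in foot shock in 7 and Pde6a higher in 6.

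Rapgef4 was the one companion past the threshold in MHb-like neurons, of 39 measured among 65 found. It was at 311 CPM (296 to 327) in control and 469 CPM (452 to 488) in foot shock, giving a ratio of 1.51 (1.42 to 1.61). It was higher in foot shock in 7 of the 8 subclusters and lower in MHb6, where it had 6 and 3 UMIs. In the 3 subclusters with most Rapgef4 the ratio was under 1.5, at 1.45 (1.33 to 1.57) in MHb1, 1.41 (1.16 to 1.71) in MHb8 and 1.11 (0.951 to 1.29) in MHb5. The ratio over the class ranged from 1.41 to 1.56 and was past the threshold in 7 of 10 alternatives, failing with cells or subclusters weighted equally or free RNA subtracted.

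In LHb-like neurons Pde4a was the member with most UMIs past the threshold. It was at 116 CPM (103 to 131) in control and 77.0 CPM (65.7 to 89.6) in foot shock, giving a ratio of 0.663 (0.544 to 0.808). Pde4a was lower in foot shock in 7 of 7 subclusters, which are parts of the same 2 libraries and not replicates. Under the alternatives its ratio ranged from 0.598 to 0.684 and was past the threshold in 7 of 10, failing with at least 2000 UMIs a cell, at most 10% mitochondrial UMIs, or trimmed-mean scaling. Thalamus-like neurons had Pde4a at 114 and 60.4 CPM, giving a ratio of 0.528 (0.290 to 0.907). Its ratio was 0.771 (0.621 to 0.952) in Pou4f1-positive and 0.965 (0.804 to 1.16) in MHb-like neurons, and the difference between classes was not tested.

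Adcy9 was the other, at 7.33 and 15.7 CPM, giving a ratio of 2.14 (1.16 to 4.08), from 17 and 34 UMIs, of which 3 and 13 lay in LHb5. Just short of the threshold were Pde10a at 1.49 (1.00 to 2.22) and Pde2a at 1.47 (1.14 to 1.91). Of the 65 companions 39 were measured and 3 were higher. Gucy1a3 was at 49.2 and 88.0 CPM, giving a ratio of 1.79 (1.41 to 2.28), and higher in foot shock in 4 of 7 subclusters. Npr1 was at 22.9 and 37.8 CPM, giving a ratio of 1.65 (1.16 to 2.38), and higher in 2 of the 7 and lower in 3. With the subclusters weighted equally the Npr1 ratio was 1.13, below the threshold. Popdc3, a cAMP-binding membrane protein, had a ratio of 1.66 (1.08 to 2.56). LHb3, the subcluster led by Npr1 among others, held 50 control and 92 foot shock cells. MHb markers summed to 1511 and 1778 CPM in LHb-like neurons, and Gucy1a3 and Npr1 were at 472 and 541 CPM and 124 and 142 CPM in MHb-like neurons. The part of such RNA in these ratios was not tested.

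**Figure D4:**
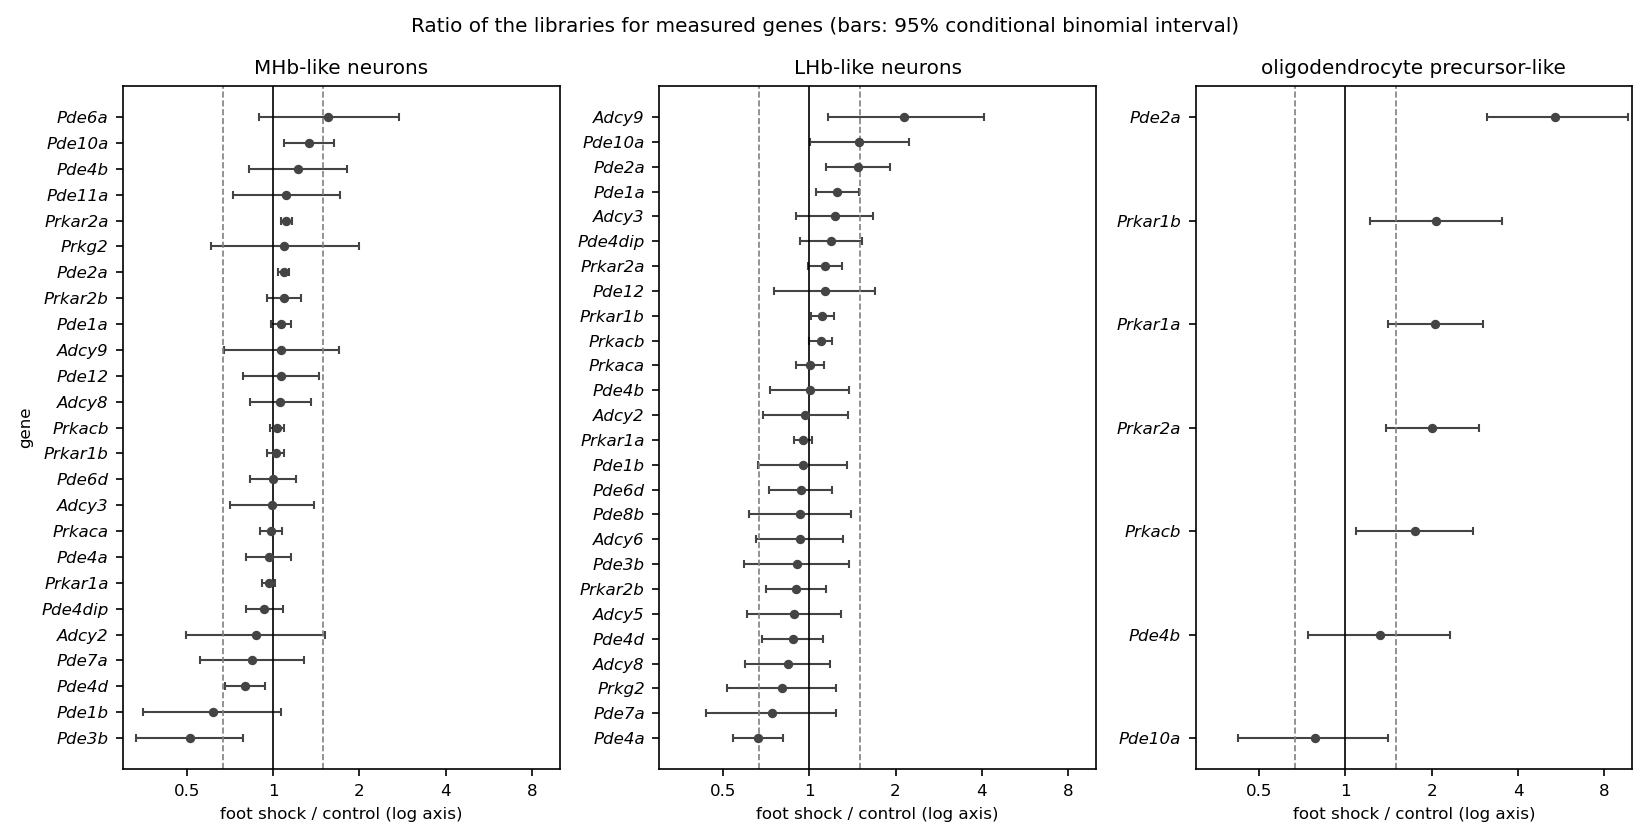
Ratio of foot shock to control (horizontal log axes) for each measured gene in the 2 habenular neuron classes and the oligodendrocyte precursor-like cells, where a point is 1 library over 1 library, bars are 95% conditional binomial intervals and dashed lines mark 1.5 and its inverse. Most points lie between the dashed lines in the neurons, and 5 of 7 lie past 1.5 in the precursor-like cells, with Pde2a at 5.38.

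In Pou4f1-positive neurons Pde2a was at 24.8 and 53.0 CPM, giving a ratio of 2.13 (1.42 to 3.21), below its level in free RNA. The 3 clusters of that class differed: the largest had 22.2 and 24.8 CPM, the next 52.2 and 156 CPM and the smallest 12.4 and 79.4 CPM, beside MHb markers that summed to 798 and 1042 CPM in the class, whose part was not tested. Adcy8 had a ratio of 0.633 (0.348 to 1.10). The kinase A inhibitor gene Pkib was at 90.4 and 53.9 CPM, giving a ratio of 0.596 (0.435 to 0.808), and Gucy1a3 had a ratio of 1.54 (1.14 to 2.08).

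Pou4f1-low neurons had 4 of 21 measured members past the threshold, with 11.1% of all genes: Pde8b at 1.57 (0.964 to 2.56), Adcy1 at 0.627 (0.380 to 1.00), Pde4d at 0.630 (0.377 to 1.02) and Pde7a at 0.607 (0.320 to 1.09). Each of these intervals includes 1. Gucy1a3 had a ratio of 1.56 (1.06 to 2.30) there. Thalamus-like neurons had 3 of 13, with 11.9% of all genes. Besides Pde4a these were Pde10a, at 121 CPM (97.4 to 148) in control and 196 CPM (146 to 257) in foot shock, giving a ratio of 1.62 (1.14 to 2.31), and Pde4dip at 0.651 (0.345 to 1.15). With at least 2000 UMIs a cell the Pde10a ratio was 1.49, below the threshold. The median depth of these cells was 7311 UMIs in control and 3569 in foot shock.

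Oligodendrocyte precursor-like cells had 5 of 7 measured members past the threshold, where 27.4% of all measured genes were, and all 5 were higher in foot shock. Pde2a was at 55.5 CPM (32.9 to 87.7) in control and 298 CPM (226 to 386) in foot shock, giving a ratio of 5.38 (3.12 to 9.71). Prkar2a was at 169.5 and 340.2 CPM, giving a ratio of 2.01 (1.38 to 2.93), and Prkar1a at 163 and 335 CPM, giving a ratio of 2.05 (1.40 to 3.01). The brain subunit Prkar1b was at 86.3 and 178 CPM, giving a ratio of 2.06 (1.21 to 3.53), and Prkacb at 120.2 and 209 CPM, giving a ratio of 1.74 (1.09 to 2.78).

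Neuron markers moved with them: 6 of 6 were found in both libraries and summed to 746 and 1743 CPM, and MHb markers summed to 243 and 1261 CPM, with Chat and Slc18a3 at 0 in control. In the precursor-like cells without a UMI of the 6 neuron markers, 141 in control and 58 in foot shock, none of the 5 reached 50 UMIs. Prkar2a was then at 156 and 183 CPM, giving a ratio of 1.18 (0.557 to 2.36), and Prkar1a at 138 and 169 CPM, giving a ratio of 1.22 (0.557 to 2.54). Prkar1b and Prkacb had ratios of 1.33 (0.405 to 3.93) and 0.931 (0.356 to 2.19), and Pde2a, from 6 and 7 UMIs, one of 2.85 (0.820 to 10.3). Prkg2 and Pde1c, under 50 UMIs in the whole class, were also read in these cells. Prkg2 was at 63.4 and 169 CPM, from 11 and 12 UMIs, giving a ratio of 2.67 (1.08 to 6.67). Pde1c, from 6 and 2 UMIs, had a ratio of 0.8145 (0.0804 to 4.555). Without the cells above the 95th percentile of UMIs the Prkar2a ratio over the class was 0.934.

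**Figure D5:**
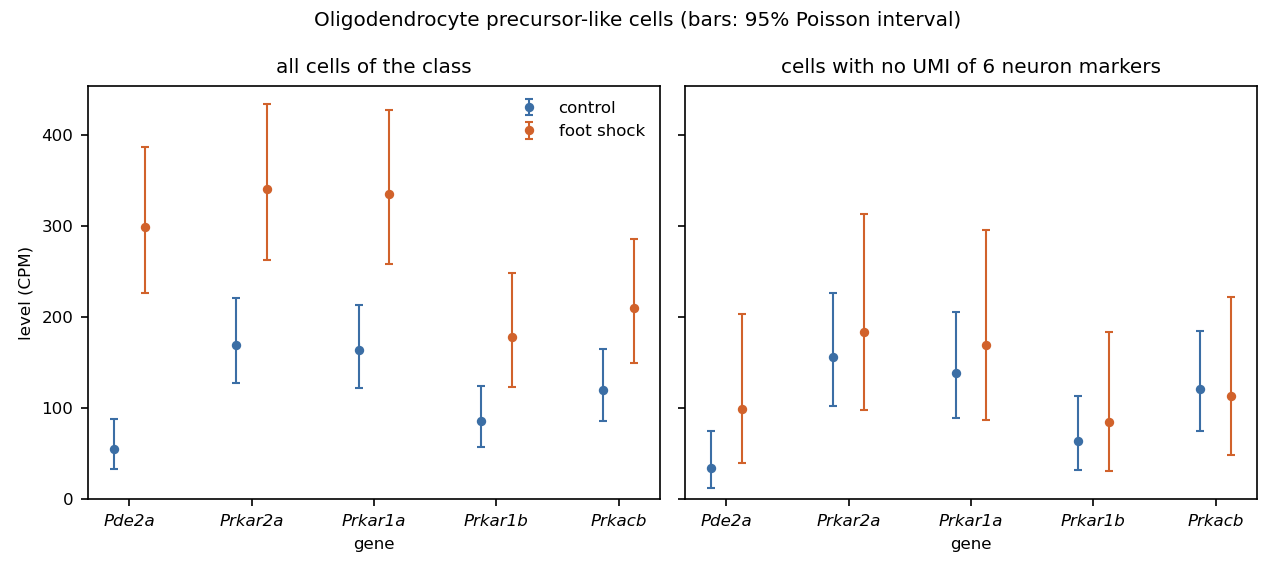
Levels in CPM (vertical axis from 0) of 5 genes in oligodendrocyte precursor-like cells, all cells on the left and cells with no UMI of 6 neuron markers on the right, where points are single libraries and bars 95% Poisson intervals. On the left foot shock lies above control for each gene, and on the right the intervals of the libraries overlap for each gene.

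Oligodendrocyte-like cells had 1 of 15 measured members past the threshold, with 13.5% of all genes. This was Pde2a at 12.2 and 20.2 CPM, giving a ratio of 1.64 (0.973 to 2.80), below its level in free RNA and beside MHb markers at 98.0 and 187 CPM. In cells without a neuron marker it was at 8.48 and 14.8 CPM, from 14 and 17 UMIs, with a ratio of 1.74 (0.810 to 3.82). Pde8a and Pde4b were lower in foot shock without passing it, with ratios of 0.718 (0.613 to 0.839) and 0.784 (0.677 to 0.906). Without the cells holding such a marker that of Pde8a was 0.721 (0.596 to 0.868). Hcn2, a pacemaker channel that binds cAMP, was at 417 and 314 CPM in these cells, a ratio of 0.753 (0.676 to 0.838), against 86.3 and 84.8 CPM in LHb-like neurons. The median log2 ratio of all measured genes in oligodendrocyte-like cells was -0.11.

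The smaller classes gave few measured members. Astrocyte-like cells had 2 of 5 past the threshold, with 26.6% of all genes: Pde4b at 72.7 and 150.4 CPM, giving a ratio of 2.07 (1.33 to 3.19), and Prkacb at 83.5 and 146 CPM, giving a ratio of 1.76 (1.14 to 2.68), beside neuron markers at 291 and 589.8 CPM. Without the cells holding a neuron marker the Pde4b ratio was 1.85 (1.00 to 3.31) and that of Prkacb 1.53 (0.810 to 2.76). Committed precursor-like cells had 2 of 4, with 19.9% of all genes, Prkacb at 1.83 (1.01 to 3.34) and Prkar2a at 1.94 (1.20 to 3.16), beside neuron markers at 186 and 595 CPM. In cells without a neuron marker these ratios were 1.63 (0.608 to 4.36) and 1.20 (0.557 to 2.52).

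Microglia-like cells had 2 of 2 past the threshold, with 29.3% of all genes, beside neuron markers at 399.8 and 1261 CPM. Pde3b was at 244 and 119 CPM, giving a ratio of 0.487 (0.252 to 0.892), and at 266 and 122 CPM, giving a ratio of 0.458 (0.171 to 1.05), in cells without a neuron marker. Prkar1a had a ratio of 1.62 (0.957 to 2.78), and of 0.944 in those cells. Mural-like cells had 3 of 4, with 18.7% of all genes. Pde3a had a ratio of 0.580 (0.376 to 0.884), and of 0.615 (0.377 to 0.987) without cells holding a neuron marker. Pde5a had a ratio of 0.651 (0.385 to 1.08), and of 0.707 (0.410 to 1.20), no longer past the threshold, without those cells. Prkar1a was higher, at 333 and 548 CPM, with a ratio of 1.43 in cells without a neuron marker. Neuron markers summed to 136 and 402 CPM in mural-like cells.

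Several companion genes had a highest class at 5 times their median class or more. Gucy1a3, Npr1, Rapgef4 and Ppp1r1b (DARPP-32, a phosphatase inhibitor that kinase A switches on) were highest in MHb-like neurons, with Ppp1r1b at 118 and 132 CPM. Rapgef3 (Epac1) was highest in astrocyte-like cells at 114 and 119 CPM, and Nos1, a nitric oxide synthase, in Pou4f1-low neurons at 66.1 and 78.2 CPM, close to the 63.5 and 60.7 CPM of MHb-like neurons. Of the channel genes, Hcn3 was highest in LHb-like neurons at 77.6 and 87.6 CPM, and Hcn2 in oligodendrocyte-like cells. All 7 G protein alpha genes were measured in MHb-like and in LHb-like neurons, and none was past the threshold there. Nor was any of the 9 measured of 14 anchoring protein genes in either class, or of the 8 and 7 measured of 8 genes of cAMP-dependent transcription. In oligodendrocyte-like cells 1 of 24 measured companions was past the threshold (Crtc2, higher), where 13.5% of all genes were. In astrocyte-like cells 3 of 15 were (Akap7, Ppp1r1a and Arpp21, all lower), with 26.6% of all genes, and in oligodendrocyte precursor-like cells 3 of 10 (Gucy1a3 and Gnao1 higher, Akap7 lower), with 27.4%. Committed precursor-like cells had 2 of 7 (Gnao1 higher, Arpp21 lower), with 19.9%, microglia-like cells 1 of 6 (Gnao1, higher), with 29.3%, and mural-like cells 0 of 5, with 18.7%. Pou4f1-positive neurons had 2 of 34 (Gucy1a3 higher, Pkib lower), with 6.95%, and Pou4f1-low neurons 1 of 30 (Gucy1a3, higher), with 11.1%. Thalamus-like neurons had 2 of 20, both lower, with 11.9%. Of these genes Crtc2, Akap7, Ppp1r1a and Arpp21 are named after their values were seen. Outside neurons Gnao1, a G protein gene abundant in neurons, was at 225 and 482 CPM in oligodendrocyte precursor-like cells, a ratio of 2.14 (1.56 to 2.95), where neuron markers were also higher. In cells without a neuron marker its ratio was 0.991.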

How the data were processed

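Single cells of the habenula were measured with the 10x 3′ v2 chemistry in 2 libraries. The deposited matrices hold unnormalized UMI counts, made with Cell Ranger 2 on mm10, per the submitters' processing notes. The annotation release and strand setting are not given in the sources used here. Library totals were 23095501 (control) and 22189951 (foot shock) UMIs.

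Cells with at least 1000 UMIs, 500 to 6000 genes and at most 20% mitochondrial UMIs were kept, and Scrublet doublets were removed (249 and 69, 4.85% and 1.43%). They were clustered with Leiden at resolution 1.0 on 2000 variable genes and 30 components (Python 3.11.15, scanpy 1.11.5, leidenalg 0.10.2, scikit-learn 1.9.0, scipy 1.17.1), and clusters were named from marker lists. UMIs were summed per class and library. The members, markers and companion lists were chosen with earlier results of these data known. With 1 library per group no test across samples exists, so p-values are not given. Ratio intervals were tested on Poisson counts simulated from the MHb-like class. That simulation held no variation between cells or libraries and no sparse class, so it cannot show how the intervals hold there. Members were described by class with at least 200 UMIs in some class and a highest class at 3 times the median or more, or with a called ratio at 100 UMIs. Subcluster values were given for members with 100 UMIs and a range of 3 times or more. Companion genes were named by the called ratio or at 5 times their median class. Alternatives for the companion ratios were added after seeing the data. Alternatives changed the filters, scaling, weighting, thresholds, free RNA, thinning and clustering. Pde3a, Pde6h, Pde7a, Pde12, Adcy3 and Adcy6 have exons that overlap a gene on the opposite strand. A companion gene that met the rule is not reported here.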

Additional observations from a re-analysis of the deposited data

Results flagged for a closer look

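Adcy4, a cyclase that was measured in none of the 11 classes compared, appeared in endothelial-like cells at 71.1 CPM over both libraries, a class left out of the comparisons because it held 64 control and 46 foot shock cells. Of the 20 Adcy4 UMIs in all cells 19 lay there, and the level lies above what a count of 0 would allow. The control library had 76.6 CPM and the foot shock library 63.3 CPM.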

How the results depend on the processing

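The number of measured member and class pairs past the threshold, 29, became 14 with at least 2000 UMIs a cell, 59 and 7 with genes measured from 20 or 100 UMIs, 8 at a fold of 2, and 18 without glial and mural cells holding a neuron marker (chosen after seeing the data). Filters and UMI limits also change how many pairs are measured. That number and the share over all genes are not given for each setting, so a lower count need not mean smaller differences. In MHb-like neurons the 3 became 5 from 20 UMIs, 0 from 100 UMIs and 0 at a fold of 2. In LHb-like neurons the 2 became 1 with at least 2000 UMIs a cell, from 100 UMIs, at a fold of 2, or without the subclusters MHb7, MHb8 and LHb6 (chosen after seeing the data), 0 at 10% mitochondrial UMIs, and 4 with cells weighted equally, free RNA subtracted or subclusters weighted equally. In oligodendrocyte precursor-like cells the 5 became 2 with at least 2000 UMIs, without cells above the 95th percentile or from 100 UMIs. They became 10 from 20 UMIs, 3 above the free RNA level and 0 without cells holding a neuron marker, where none of the 5 reached 50 UMIs. There Prkar2a reversed to 0.934 without cells above the 95th percentile of UMIs, the companion Gnao1 to 0.991 without cells holding a neuron marker, and Prkar2a moved to 3.92 with at least 2000 UMIs and 1.15 with cells weighted equally. The cause of these changes was not tested. Single ratios were recomputed under other filters, scaling, weighting, free RNA subtraction and choices of cells. The fold of 2, the limits of 20 or 100 UMIs and the free RNA level were not among these alternatives. Of 7 called ratios with at least 100 UMIs, 4 stayed past the threshold in each of these alternatives in which they had enough UMIs. They were Pde2a in Pou4f1-positive neurons (1.73 to 2.74), Pde3a in mural-like cells (0.482 to 0.635) and Pde4a in thalamus-like neurons. The last was Prkar1a in oligodendrocyte precursor-like cells, which without cells holding a neuron marker had under 50 UMIs and a ratio of 1.22. The ratios of Pde3a (0.580) and Pde4a (0.5285) were not past a fold of 2. Members with a class pattern numbered 10, and 6 with at least 2000 UMIs a cell. Thinned to 2000 UMIs, the shares were 70.3% and 74.8% for Prkar2a in MHb-like neurons and 31.8% and 23.4% for Pde8a in oligodendrocyte-like cells. The trimmed mean of log2 ratios was over 0.1 from 0 in mural-like cells alone (-0.13), where this scaling raised the ratios by that size. Leaving out a replicate was not possible. No paired analysis was possible because each group is 1 library. Depth limits the calls, since 7 of the 29 had at least 100 UMIs.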
